A study of Mus musculus with 16 samples.

Results

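The ileum of fat-1 and wild-type (WT) mice was compared on the pair-fed (PF) control diet, that is, in the absence of ethanol (EtOH). The comparison took the libraries whose labels gave the PF diet, 4 of WT and 4 of fat-1 mice, which were 8 of the 16 libraries of the series. The mice were male C57BL/6 littermates, 8 to 10 weeks of age at the start, fed a Lieber-DeCarli liquid diet for 6 weeks, in which maltose dextrin replaced the calories of EtOH for the PF groups. The fat-1 mice were heterozygous carriers of fat-1, a Caenorhabditis elegans gene expressed in all tissues. RNA came from a whole segment of terminal ileum, 1 library per mouse, so p-values measured the spread between mice. The labels named neither litters nor pairs. Reads of the worm transgene were not analysed here, so the genotype of each library rested on its label. The study reports that the mice were genotyped at weaning, with PCR on tail biopsies. It also aligned the reads to the worm genome to check that the transgene was expressed.

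Polyunsaturated fatty acids (PUFA) of the n6 and n3 series differ in the position of the last double bond, and mammals cannot turn one series into the other. The enzyme encoded by fat-1 is an n3 desaturase that makes this conversion, so carriers have a lower ratio of n6 to n3 PUFA without any change of diet. Both series are precursors of eicosanoids and oxylipins and can act as ligands of nuclear receptors such as PPARA and of membrane receptors such as FFAR4.

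The 8 PF libraries held 8422645 to 10064410 counts over 21965 genes, and 12899 genes had enough counts to be tested. At this depth a gene with no counts could still lie at up to 0.298 to 0.356 CPM (counts scaled to a common library size, in the usual per-million unit), a limit of 3 counts per library that covers counting error only. Of the variance among the 8 libraries, 55.1% lay on the first principal component, where fat-1 PF replicates 2 and 4 had scores of 55.5 and 47.9 and the other 6 libraries scores of -37.5 to -6.15. These 2 libraries also stood apart from the labelled tissue. The ileal bile acid transporter Slc10a2 was at 6.80 and 3.19 CPM in them and at 433 to 1177 CPM in the other 6 libraries, and the ileal bile acid binding protein Fabp6 was at 23.4 and 2.97 CPM against 774 to 3532 CPM. The biological coefficient of variation was 0.144 among WT PF mice and 0.252 among fat-1 PF mice. Whether these mice were sampled at another position along the intestine was not tested, and since earlier results of these data had shown them apart, the comparison was repeated without fat-1 PF replicates 2 and 4. Values from that fit, in which 277 (2.1%) of 13189 genes were higher and 442 (3.35%) lower at an unadjusted p under 0.05, are given beside the gene lists and many of the named genes.

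No gene passed the threshold for genotype on the PF diet. In the quasi-likelihood test of edgeR, adjusted by the method of Benjamini and Hochberg, 0 of 12899 genes had an adjusted p of 0.05 or less, which is 0% of those tested, and the smallest adjusted p was 0.287, shared by 730 genes. At an unadjusted p under 0.05 the same test gave 1844 genes, or 14.3%, of which 1151 (8.92%) were higher and 693 (5.37%) lower in fat-1 PF mice. Of the 1844, 146 were at least 2-fold higher and 52 at least 2-fold lower. DESeq2's Wald test on the same counts called 99 of 11897 genes at an adjusted p of 0.05 or less, which is 0.832%, with 71 higher and 28 lower in fat-1 PF mice. The median absolute log2 fold change over all genes tested was 0.17. The groups of 4 did not overlap in CPM for 496 genes (3.85%) that were higher and 392 genes (3.04%) that were lower in fat-1 PF mice. Values below are CPM of the 4 WT PF and the 4 fat-1 PF mice in the order of their replicate numbers, and log2 fold changes are fat-1 PF over WT PF with the standard error (SE) of the edgeR fit.

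The 12 genes with the smallest p that lay higher in every fat-1 PF mouse than in any WT PF mouse were Aldh1a7, Acox2, Acadl, Ndufa12, Hsdl2, Mrps15, Fdxr, Ciao2a, Nmnat1, Higd1a, Sco2 and Kyat1. None passed the edgeR test, all at an adjusted p of 0.287. Aldh1a7, an aldehyde dehydrogenase (chr19:20692953-20727562, minus strand, GRCm38), had 32.7, 39.8, 36.1 and 37.5 CPM in WT PF and 49.1, 64.8, 59.3 and 55.5 CPM in fat-1 PF mice, a log2 fold change of 0.65 (SE 0.11). Every fat-1 mouse lay above every WT mouse, as the choice of these genes required.

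Acox2, the peroxisomal oxidase of branched-chain fatty acids and bile acid intermediates, had 14.9, 21, 19.2 and 16.6 CPM in WT PF and 31.8, 34.4, 25.2 and 31.9 CPM in fat-1 PF mice (log2 fold change 0.78, SE 0.14). Acadl, the long-chain acyl-CoA dehydrogenase of mitochondrial beta-oxidation (chr1:66830839-66863277, minus strand), had 126, 138, 104 and 132 CPM in WT PF and 189, 251, 174 and 231 CPM in fat-1 PF mice (log2 fold change 0.76, SE 0.14). In both genes the lowest fat-1 PF value was that of replicate 3, and it still lay above the highest WT PF value. Hsdl2, a peroxisomal short-chain dehydrogenase-like protein, had the tightest values, with 30.4 to 34.4 CPM in WT PF and 42.3 to 44.5 CPM in fat-1 PF mice (log2 fold change 0.42, SE 0.08). Without fat-1 PF replicates 2 and 4 the log2 fold changes were 0.56 for Aldh1a7, 0.67 for Acox2, 0.53 for Acadl and 0.43 for Hsdl2. DESeq2 called these 4 genes at adjusted p of 0.0029, 0.0044, 0.0036 and 0.029.

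Ndufa12, an accessory subunit of complex I (chr10:94198720-94221443, plus strand), had 36.1, 38.4, 31.4 and 30.6 CPM in WT PF and 48.2, 59.4, 45.7 and 65.0 CPM in fat-1 PF mice (log2 fold change 0.68, SE 0.13, and 0.45 without replicates 2 and 4). Sco2, a copper chaperone of complex IV assembly, had 7.59 to 11.2 CPM in WT PF and 14.4 to 33.7 CPM in fat-1 PF mice, the largest log2 fold change of the 12 (1.21, SE 0.25, and 0.73 without replicates 2 and 4). Fdxr, the ferredoxin reductase of iron-sulfur cluster and steroid synthesis, had 8.18 to 9.17 CPM in WT PF and 11.7 to 14.5 CPM in fat-1 PF mice (0.62, SE 0.13). The remaining values ran from 0.46 (SE 0.10) for Higd1a, a hypoxia-induced mitochondrial protein, to 0.78 (SE 0.16) for Mrps15, a protein of the mitochondrial ribosome. Nmnat1, which makes NAD in the nucleus, also had 0.78 (SE 0.16).

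**Figure D1:**
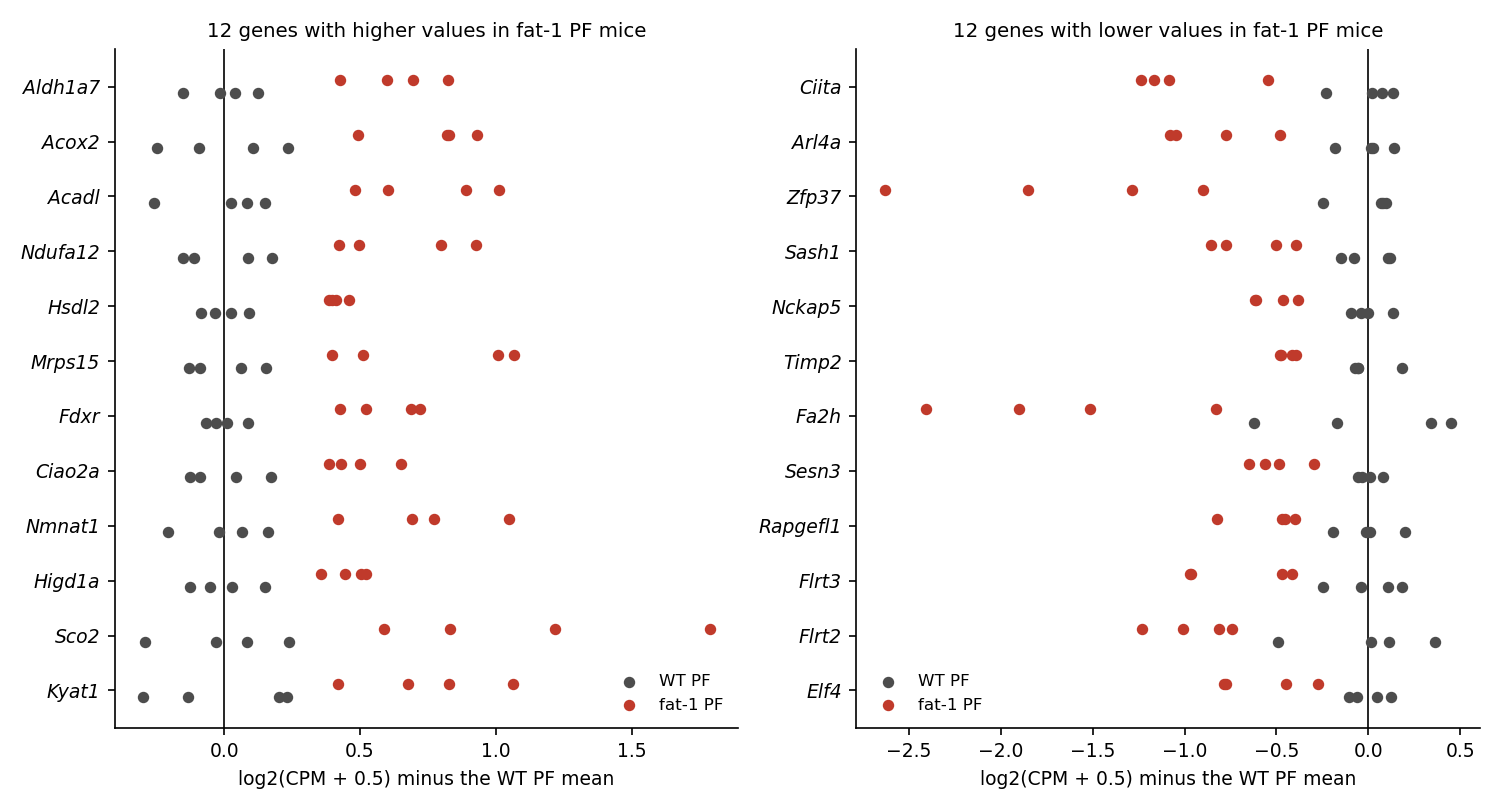
Level of each of the 24 genes as log2(CPM + 0.5) minus the WT PF mean (x axis), with 1 point per mouse for the 4 WT PF (grey) and 4 fat-1 PF (red) mice, in 12 genes with higher (left) and 12 with lower values (right) in fat-1 PF mice. The genotypes are apart in all 24 by the choice of genes, by little in Fa2h (nearest mice 1.66 and 1.37 CPM) and by more in Ciita (35.5 and 28.4 CPM).

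The 12 genes in the opposite direction were Ciita, Arl4a, Zfp37, Sash1, Nckap5, Timp2, Fa2h, Sesn3, Rapgefl1, Flrt3, Flrt2 and Elf4, also all at an adjusted p of 0.287 in the edgeR test. Ciita, the transactivator that switches on MHC class II genes (chr16:10480059-10528418, plus strand), had 42.3, 35.5, 45.7 and 43.8 CPM in WT PF and 19.4, 17.4, 28.4 and 18.3 CPM in fat-1 PF mice. The means were 41.9 ± 4.45 and 20.9 ± 5.10 CPM (SD, n = 4 each), a log2 fold change of -1.01 (SE 0.16). Ciita had the smallest p of all 12899 genes and the smallest adjusted p in DESeq2, 0.00062. Without replicates 2 and 4 its log2 fold change was -0.82.

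Arl4a, a small GTPase of the ARF-like family (chr12:40005447-40038025, minus strand), had 61.5, 70.6, 71.0 and 76.9 CPM in WT PF and 32.8, 40.7, 49.9 and 33.5 CPM in fat-1 PF mice (log2 fold change -0.84, SE 0.14). The highest fat-1 PF mouse was replicate 3, well below the lowest WT PF mouse, and the value without replicates 2 and 4 was -0.77. Sash1, a scaffold of TLR4 signalling, had 53.7 to 64.7 CPM in WT PF and 32.7 to 45.2 CPM in fat-1 PF mice (-0.63, SE 0.12). Fa2h, which hydroxylates fatty acids for sphingolipids, was low throughout, with 3.70, 1.66, 2.44 and 4.04 CPM in WT PF and 0.388, 0.126, 1.37 and 0.661 CPM in fat-1 PF mice (-2.22, SE 0.50). Its nearest mice of the 2 genotypes differed by little, and its SE was the largest of these 12 genes. The nuclear zinc finger protein Zfp37 had 6.70 to 8.65 CPM in WT PF and 0.881 to 4.10 CPM in fat-1 PF mice (-1.71, SE 0.34). Timp2, an inhibitor of matrix metalloproteinases, had 27.0 to 32.3 CPM in WT PF and 20.2 to 21.5 CPM in fat-1 PF mice (-0.45, SE 0.10). The adhesion molecules Flrt3 and Flrt2 had log2 fold changes of -0.70 (SE 0.16) and -1.18 (SE 0.27).

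Genes of oxidative phosphorylation lay higher in fat-1 PF mice as a group. They encode the respiratory complexes that oxidise NADH and pass electrons to oxygen, and the ATP synthase that the resulting gradient drives. Of 89 genes listed, 82 were tested, and 80 had a log2 fold change above 0, with a median of 0.47 against -0.00 over all genes. At an unadjusted p under 0.05, 67 of the 82 (81.7%) were higher and 0 lower, beside 8.92% and 5.37% of all genes, and in 34 (41.5%) every fat-1 PF mouse lay above every WT PF mouse, beside 3.85%. None of the 82 passed the edgeR test after adjustment. DESeq2 called 9 of them higher, where it called 0.832% of all genes in either direction. By complex, the counts at an unadjusted p under 0.05 were 36 of 37 for complex I, 7 of 8 for complex III, 11 of 13 for complex IV and 12 of 16 for the ATP synthase, with medians of 0.49, 0.49, 0.49 and 0.45. The assembly factors of complex I, which are not part of the finished enzyme, gave 1 of 8 and a median of 0.23.

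Ndufa5 of complex I had 50.5, 55.4, 49.2 and 39.1 CPM in WT PF and 63.3, 97.4, 68.4 and 114 CPM in fat-1 PF mice (log2 fold change 0.82, SE 0.19). Uqcr10 of complex III had 121, 133, 123 and 100.1 CPM in WT PF and 149, 198, 145 and 215 CPM in fat-1 PF mice (0.57, SE 0.15). In complex IV, Cox7a1 had 57.6, 65.8, 59.3 and 33.4 CPM in WT PF and 66.3, 113, 78.9 and 130.1 CPM in fat-1 PF mice, the largest difference of the list (0.85, SE 0.26). Without replicates 2 and 4 these 3 differences were 0.43, 0.30 and 0.42. In all 3 the highest mice were fat-1 PF replicates 2 and 4, while replicates 1 and 3 lay nearer to the WT PF mice but above them. Atp5k of the ATP synthase showed the same order, with 83.4 to 106 CPM in WT PF and 109 to 175 CPM in fat-1 PF mice (0.61, SE 0.15). The members that did not lie above 0 were Cox6b2, the testis form of a complex IV subunit (-0.01, SE 0.19), and the complex I assembly factor Ndufaf7 (-0.00, SE 0.13).

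Averaged over the list as log2(CPM + 0.5), the oxidative phosphorylation genes stood at 6.58, 6.72, 6.57 and 6.37 in WT PF and at 6.75, 7.14, 6.89 and 7.18 in fat-1 PF mice, so the genotypes did not overlap. Without fat-1 PF replicates 2 and 4 the median log2 fold change was 0.27, and 24 of the 82 were higher at an unadjusted p under 0.05 and 0 lower, beside the 2.1% and 3.35% of all genes in that fit. The proteins of the mitochondrial ribosome, which translates the subunits encoded in mitochondrial DNA, were added as a list after values had been seen. Of 77 tested, 76 had a log2 fold change above 0 (median 0.21), the exception being Mrpl3 (-0.02, SE 0.10), and 30 (39.0%) were higher and 0 lower at an unadjusted p under 0.05, beside 8.92% and 5.37% of all genes. Mrps16 had 20.9 to 25.1 CPM in WT PF and 27.8 to 37.9 CPM in fat-1 PF mice (0.51, SE 0.13). Without replicates 2 and 4 their median was also 0.21, while 14 were higher and 0 lower at an unadjusted p under 0.05, beside 2.1% and 3.35% of all genes. The 77 proteins of the cytoplasmic ribosome had a median of 0.06, with 1 higher (Rps27l, 0.40, SE 0.13) and 0 lower, and in these genes fat-1 PF replicate 3 stood at 8.15 and the other 7 libraries at 7.76 to 7.97.

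**Figure D2:**
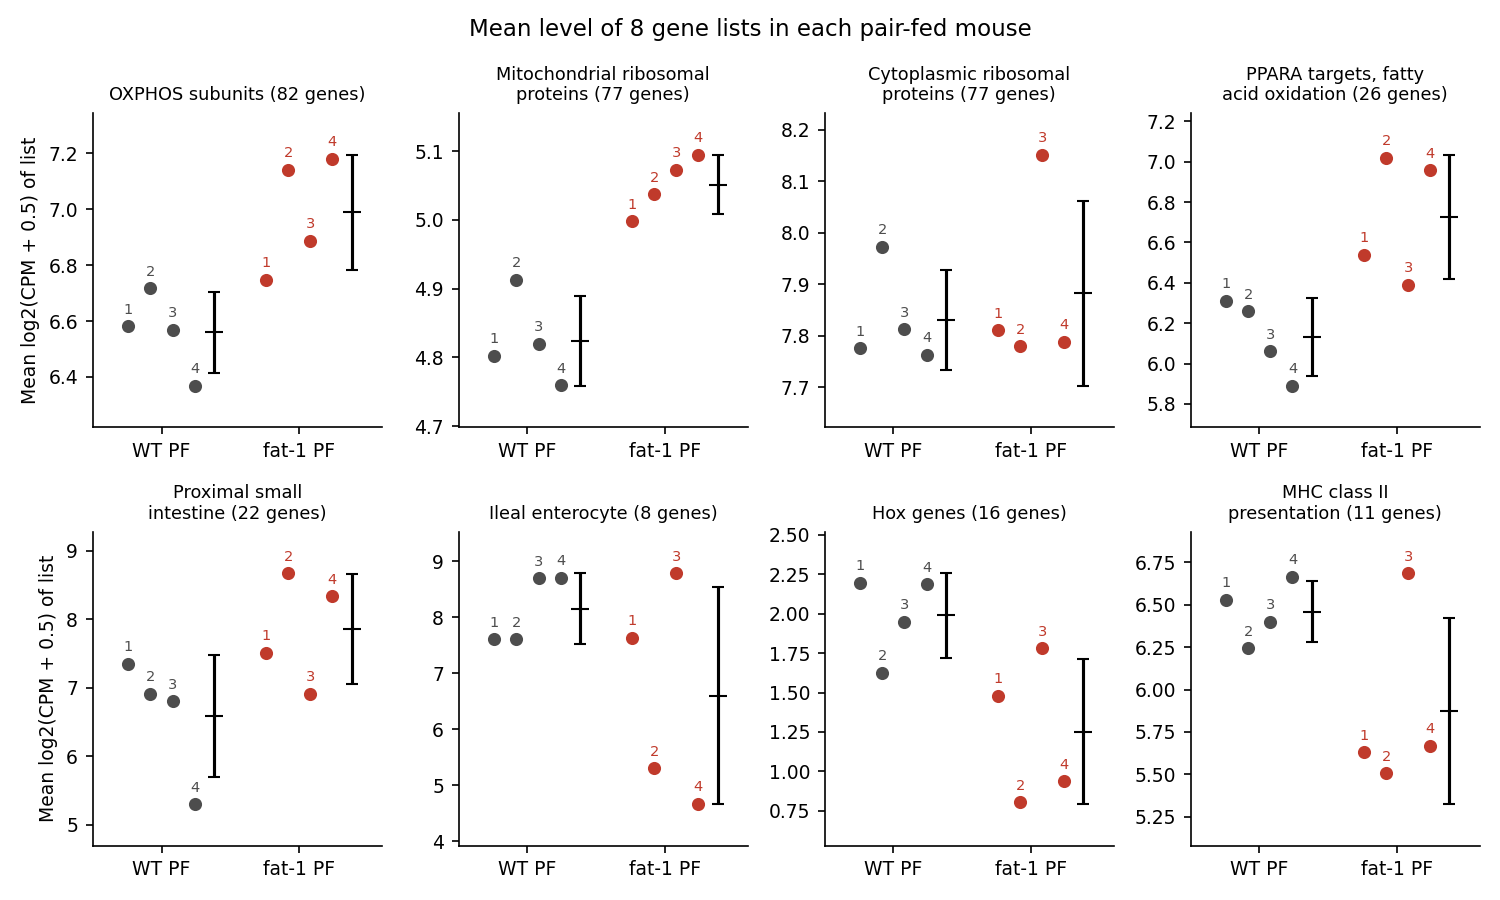
Mean log2(CPM + 0.5) over the tested members of 8 gene lists in each of the 4 WT PF and 4 fat-1 PF mice, numbered by replicate, with the mean and SD as bars and an axis of its own for each list. The oxidative phosphorylation (OXPHOS) genes lie at 6.37 to 6.72 in WT PF and 6.75 to 7.18 in fat-1 PF mice, while the ileal enterocyte genes are at 5.30 and 4.67 in fat-1 PF replicates 2 and 4 and at 7.60 to 8.79 in the other libraries.

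The fold changes also varied with the annotated summed exon length of the genes. Over all genes, the shortest 20% by summed exon length (231 to 2525 bases) had a median log2 fold change of 0.12 with 17.4% higher at an unadjusted p under 0.05, and the longest 20% (7667 to 123179 bases) had -0.11 with 2.91% higher and 9.85% lower. Oxidative phosphorylation genes have a median exon length of 1631 bases against 4480 bases for all genes. With exon length and GC content as offsets, 62 of their 82 members were higher and 0 lower at an unadjusted p under 0.05, with a median of 0.38, beside 9.81% and 3.95% of all 12892 genes in that fit. The mitochondrial ribosome had 29 of 77 higher and 0 lower with a median of 0.17, beside the same shares, and the cytoplasmic ribosome, whose transcripts are also short, had a median of -0.03. The shortest genes minus the longest, as mean log2(CPM + 0.5), gave -0.405, -0.263, -0.442 and -0.521 in WT PF and -0.418, -0.124, -0.0429 and -0.190 in fat-1 PF mice, so fat-1 PF replicate 1 lay among the WT PF mice and the other 3 above them. The part of exon length in the differences was not tested beyond these offsets.

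**Figure D3:**
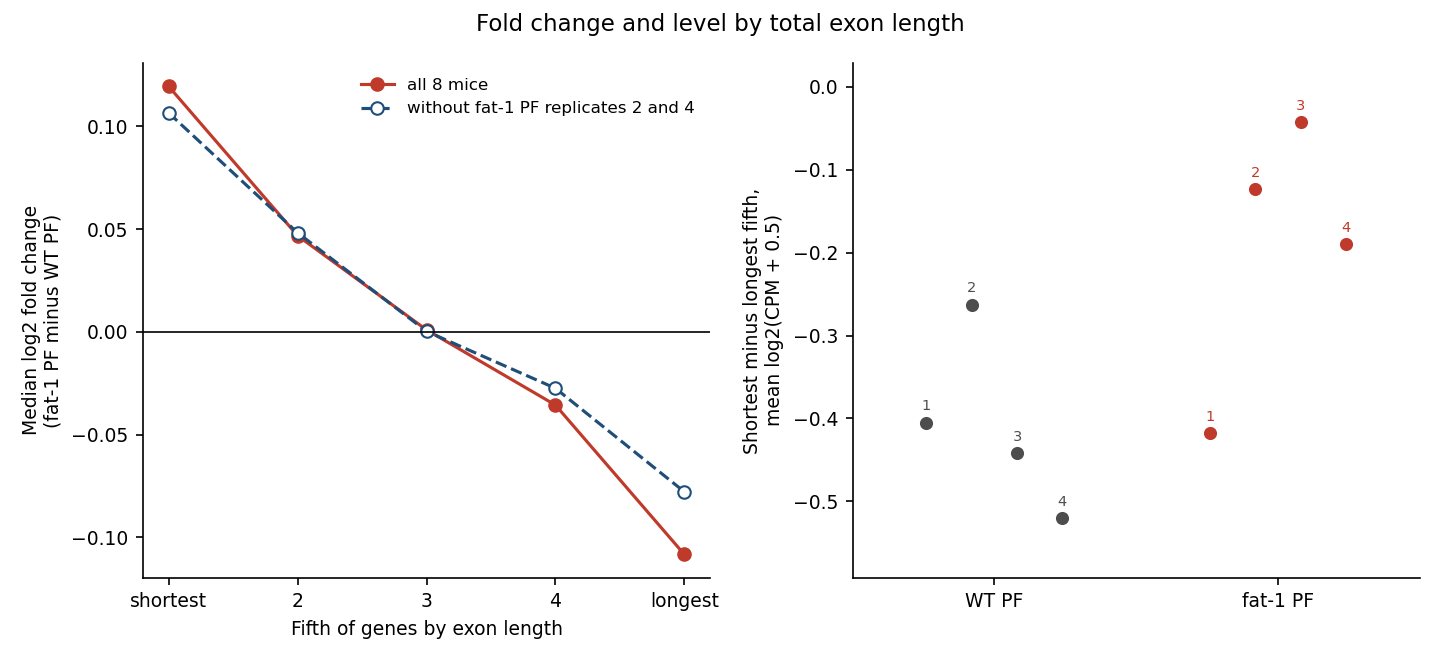
Left, median log2 fold change of fat-1 PF over WT PF mice in 5 equal bins of the tested genes from the shortest to the longest summed exon length, with all 8 mice and without fat-1 PF replicates 2 and 4, running from 0.12 to -0.11 with all mice. Right, mean log2(CPM + 0.5) of the shortest bin minus that of the longest in each mouse, numbered by replicate, at -0.521 to -0.263 in WT PF and -0.418 to -0.0429 in fat-1 PF mice.

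Fatty acid oxidation genes and targets of PPARA, the nuclear receptor that senses fatty acids and turns on their breakdown, also lay higher. Of 31 genes, 26 were tested, with a median log2 fold change of 0.60, and 24 lay above 0. At an unadjusted p under 0.05, 18 (69.2%) were higher and 0 lower, beside 8.92% and 5.37% of all genes. In 6 (23.1%) the genotypes did not overlap, beside 3.85%, and DESeq2 called 3, where it called 0.832% of all genes. Cpt2, which completes the entry of long-chain acyl groups into mitochondria, had 105, 118, 109 and 106 CPM in WT PF and 153, 156, 123 and 169 CPM in fat-1 PF mice (0.46, SE 0.11). Pex11a, a factor of peroxisome division, had 51.9, 50.3, 35.1 and 45.2 CPM in WT PF and 64.2, 69.0, 61.1 and 97.4 CPM in fat-1 PF mice (0.68, SE 0.17). All fat-1 PF mice exceeded all WT PF mice in both genes.

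In a pair of further members fat-1 PF replicates 2 and 4 had the highest values. Acaa1b, a peroxisomal thiolase, had 8.61, 4.76, 2.04 and 1.63 CPM in WT PF and 10.3, 43.8, 7.32 and 41.4 CPM in fat-1 PF mice, the largest difference of the list (2.59, SE 0.79, and 1.05 without those mice). Pdk4, which restrains glucose oxidation by phosphorylating pyruvate dehydrogenase, had 4.76 to 8.25 CPM in WT PF and 24.2, 32.2, 7.32 and 75.7 CPM in fat-1 PF mice (2.33, SE 0.65, and 1.20 without those mice). Replicate 3 lay within the WT PF range for Pdk4. Cpt1a, the gate of mitochondrial import, had 115 to 131 CPM in WT PF and 104 to 168 CPM in fat-1 PF mice (0.08, SE 0.14), and Ppara itself 14.5 to 22.6 and 6.95 to 25.7 CPM (-0.12, SE 0.37). The list members below 0 were Vnn1 (-0.51, SE 0.44) and Angptl4 (-0.25, SE 0.54). Without replicates 2 and 4 the median of the list was 0.26, with 4 of 26 genes higher and 0 lower at an unadjusted p under 0.05, beside 2.1% and 3.35% of all genes.

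Among genes that separate the regions of the intestine, the ileal ones differed most in fat-1 PF replicates 2 and 4. The proximal ones also set WT PF replicate 4 apart, in the opposite direction. Their mean log2(CPM + 0.5) was 5.30 in it, 6.81 to 7.35 in the other WT PF mice, and 7.51, 8.67, 6.91 and 8.33 in fat-1 PF mice. Ileal enterocyte genes had a median log2 fold change of -0.55 over 8 genes with none above 0, but 0 had an unadjusted p under 0.05, and without fat-1 PF replicates 2 and 4 the median was 0.05. Fabp6 then had 0.36 in place of -0.62 (SE 1.65). Genes of the proximal small intestine had a median of 1.37 over 22 genes, with 11 (50%) higher and 0 lower at an unadjusted p under 0.05, beside 8.92% and 5.37% of all genes. Without those libraries the median was 0.38, with 0 higher and 0 lower, beside 2.1% and 3.35% of all genes in that fit. The 7 large intestine genes tested had a median of -0.54, with 1 (14.3%) higher and 1 (14.3%) lower. Without those libraries their median was 0.06, with 0 higher and 0 lower. Fabp1, the fatty acid binding protein of the proximal absorptive epithelium, had 1414, 618, 354 and 30.5 CPM in WT PF and 1706, 5765, 696 and 6748 CPM in fat-1 PF mice (2.63, SE 1.16, and 0.99 without replicates 2 and 4). WT PF replicate 4 was the lowest of the 8 and fat-1 PF replicates 2 and 4 were the highest. The summed level of the proximal genes ran from 6882.4 to 24486.6 CPM in WT PF and from 17090.4 to 60438.8 CPM in fat-1 PF mice, and that of the ileal genes from 2981.0 to 7365.4 and from 746.2 to 6741.0 CPM. In whole tissue, fewer cells of a type and less RNA per cell cannot be told apart.

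In 2 of the 22 proximal genes (9.09%) the fat-1 PF mice all lay above the WT PF mice, beside 3.85% of all genes. Treh, the brush border trehalase, had 215, 204, 143 and 102 CPM in WT PF and 228, 721, 226 and 541 CPM in fat-1 PF mice (1.37, SE 0.44, and 0.45 without replicates 2 and 4). Rdh7, a retinol dehydrogenase, had 53.5, 51.0, 47.8 and 18.9 CPM in WT PF and 56.5, 253, 67.4 and 157 CPM in fat-1 PF mice (1.64, SE 0.56, and 0.53 without them). In both, fat-1 PF replicates 1 and 3 were close to the top of the WT PF range. The genotypes overlapped in Lct, the lactase of the brush border (1.32, SE 0.81, and 0.18 without replicates 2 and 4), in the proximal transcription factor Gata4 (0.74, SE 0.46, and 0.07 without them) and in the cytochrome P450 Cyp2b10 (1.78, SE 0.74, and 0.86 without them). Onecut2, a homeobox factor of the duodenum, had 2.70, 0.518, 0.407 and 0.288 CPM in WT PF and 9.99, 40.9, 1.24 and 67.1 CPM in fat-1 PF mice (4.91, SE 1.30, and 2.54 without replicates 2 and 4), with fat-1 PF replicate 3 inside the WT PF range.

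The Hox genes hold the position along the gut, with posterior members higher towards the colon. Of 36, 16 were tested, with a median log2 fold change of -0.78, and 12 were not above 0. At an unadjusted p under 0.05, 0 were higher and 4 (25.0%), Hoxb3, Hoxb5, Hoxb6 and Hoxb8, were lower, beside 8.92% and 5.37% of all genes. Hoxb5 had 7.30, 3.52, 6.21 and 5.48 CPM in WT PF and 2.04, 2.14, 3.35 and 3.08 CPM in fat-1 PF mice (-1.09, SE 0.27), and its value without replicates 2 and 4 was again -1.09. All fat-1 PF mice lay below all WT PF mice. Hoxb9 had 22.1, 10.9, 16.6 and 24.3 CPM in WT PF and 7.17, 0.252, 10.5 and 0.220 CPM in fat-1 PF mice (-2.01, SE 0.89, and -1.08 without replicates 2 and 4), also without overlap, and was under the limit of 3 counts in replicates 2 and 4. The median of the list without these libraries was -0.46, with 4 of 16 lower and 0 higher, beside 3.35% and 2.1% of all genes. Among 23 regional and enterocyte transcription factors, 2 (8.70%) were higher and 5 (21.7%) lower at an unadjusted p under 0.05, beside 8.92% and 5.37% of all genes, and 0 and 1 without replicates 2 and 4, where the median went from -0.11 to -0.01. They included Gata6 and Onecut2, which were higher, and Foxa1, Nr5a2, Hnf4a and Sox9, which were lower. Hnf4a, the nuclear receptor of enterocyte identity, had 1178, 1116, 1304 and 1178 CPM in WT PF and 886, 714, 1024 and 766 CPM in fat-1 PF mice (-0.49, SE 0.14). Its genotypes did not overlap.

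**Figure D4:**
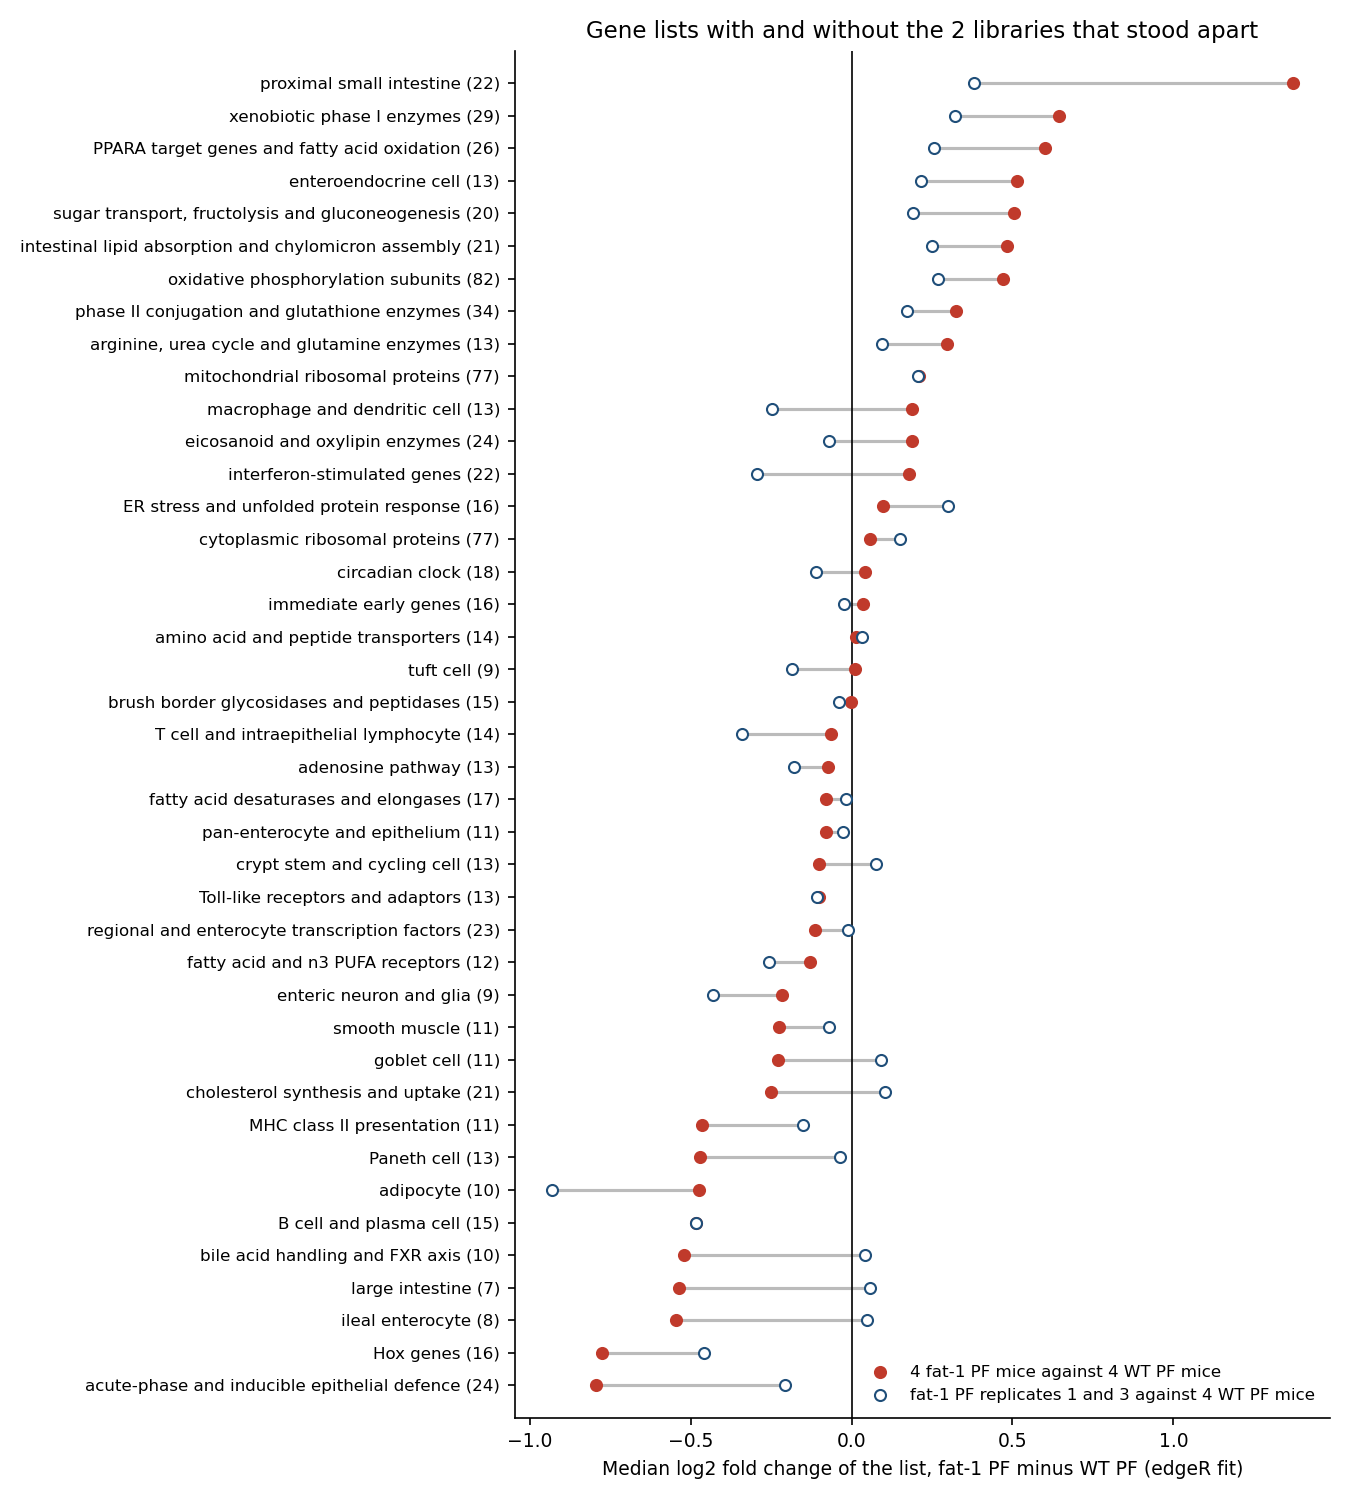
Median log2 fold change of fat-1 PF over WT PF mice (x axis) for each gene list, with the number of genes tested in parentheses, from all 8 mice (filled) and without fat-1 PF replicates 2 and 4 (open). The proximal small intestine list goes from 1.37 to 0.38 and the ileal list from -0.55 to 0.05, while the mitochondrial ribosome has 0.21 in both.

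MHC class II molecules present peptides to CD4+ T cells, and ileal enterocytes as well as antigen-presenting cells can make them. Their genes share promoter elements that the factor encoded by Ciita acts on through bound proteins, among them the Y box, a CCAAT-type element. The following RefSeq promoter windows (GRCm38.p6, bases 120 to 21 before the annotated start) are shown because the levels of these genes varied together between mice, with the Y box core GATTGG, on either strand, in capitals. H2-Aa lies at chr17:34287844-34287943 on the minus strand, H2-Eb1 at chr17:34305747-34305846 and H2-DMb1 at chr17:34153071-34153170, both on the plus strand.
H2-Aa: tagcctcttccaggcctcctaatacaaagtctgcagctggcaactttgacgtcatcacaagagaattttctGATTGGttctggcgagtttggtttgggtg
H2-Eb1: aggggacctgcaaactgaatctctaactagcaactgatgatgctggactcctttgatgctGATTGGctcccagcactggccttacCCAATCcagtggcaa
H2-DMb1: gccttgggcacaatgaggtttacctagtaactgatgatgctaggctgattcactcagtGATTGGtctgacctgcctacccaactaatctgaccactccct
The core was searched after the values had been seen. It was present in the windows (250 bases before to 50 after the start) of 7 of the 8 MHC class II presentation genes that had one, beside 23.3% of the 10191 tested genes with a window and 18.2% of all 27025 genes. The genes with the core included H2-DMb2, H2-Oa and H2-Ob, which did not vary between mice in the order described below. Its presence therefore did not separate those genes from the genes shown. The match is a description of the sequence only.

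Of the 11 MHC class II presentation genes, 6 (H2-Aa, H2-Ab1, H2-Eb1, H2-DMa, H2-DMb1 and Cd74) set fat-1 PF replicate 3 above all WT PF mice and the other 3 below them, while H2-DMb2, H2-Oa, H2-Ob, Ctss and Ciita did not show this order. H2-Aa, an alpha chain of the class II molecule, had 618, 672, 588 and 791 CPM in WT PF and 229.9, 240.3, 957 and 205 CPM in fat-1 PF mice. Cd74, the invariant chain that guards the peptide groove, had 1673, 1652, 1316 and 1854 CPM in WT PF and 645, 702, 2231 and 586 CPM in fat-1 PF mice. Fat-1 PF replicates 1, 2 and 4 were below all WT PF mice in both genes, and replicate 3 was above all of them. H2-Ab1, H2-Eb1 and the peptide exchange factor H2-DMb1 showed the same order, with replicate 3 at 873, 505 and 96.4 CPM and the other fat-1 PF mice at 247 to 309.8, 162 to 225 and 20.7 to 28.1 CPM. The WT PF ranges were 519 to 642, 333 to 415 and 60.0 to 75.2 CPM.

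With all 8 libraries, 10 of 11 members had a log2 fold change below 0 (median -0.46), and only Ciita had an unadjusted p under 0.05. The differences were -0.71 (SE 0.52) for H2-Aa and -0.64 (SE 0.43) for Cd74. Without fat-1 PF replicate 3, edgeR called 10 genes over the whole table, 4 higher and 6 lower, and 5 of the lower genes were H2-Aa (-1.57, adjusted p 0.0107), H2-DMb1 (-1.41, 0.0107), Ciita (-1.19, 0.0107), Cd74 (-1.33, 0.0205) and H2-Ab1 (-1.13, 0.0223). H2-Eb1 was then at -0.97 with an adjusted p of 0.0609. Replicate 3 was the fat-1 PF mouse above all WT PF mice in H2-Aa, H2-DMb1, Cd74, H2-Ab1 and H2-Eb1. Leaving it out therefore favours a lower value in these genes, and their calls are no separate support for a genotype difference. The remaining calls were Arl4a lower (-0.98) and Dlat, Pxmp4, Papss2 and Gsta4 higher. Without fat-1 PF replicates 2 and 4 the median of the MHC class II list was -0.15.

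**Figure D5:**
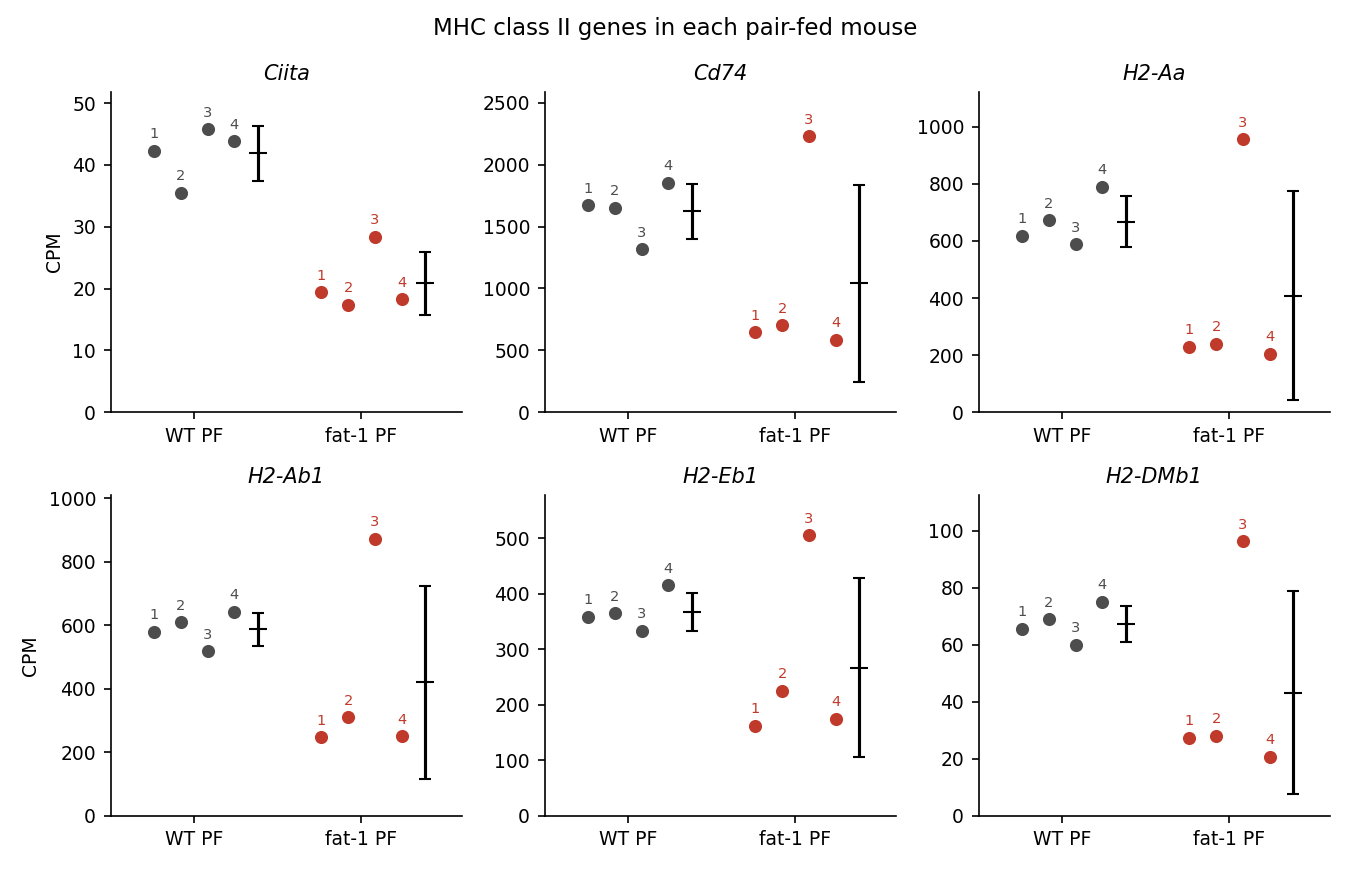
Level (CPM, linear axis from 0) of Ciita and 5 MHC class II genes in each of the 4 WT PF and 4 fat-1 PF mice, numbered by replicate, with the mean and SD as bars. In H2-Aa the fat-1 PF mice other than replicate 3 lie at 205 to 240.3 CPM, below the WT PF mice at 588 to 791 CPM, and replicate 3 lies above them at 957 CPM.

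Summed markers of antigen-presenting cells did not follow this order, although the B cell genes had a median as far below 0 (-0.48, and -0.48 without replicates 2 and 4). The summed level of 15 B cell and plasma cell genes was 883.0, 856.7, 1016.6 and 1664.1 CPM in the fat-1 PF mice, in order, and 797.1 to 1390.2 CPM in WT PF mice. That of 13 macrophage and dendritic cell genes was 214.1, 314.4, 241.1 and 359.1 CPM against 248.2 to 305.2 CPM. Neither sum set replicate 3 apart from the other fat-1 PF mice. Sums rest mostly on the abundant members. As mean log2(CPM + 0.5), the B cell list stood at 3.45, 1.89, 3.40 and 4.02 in fat-1 PF mice and at 3.11 to 4.11 in WT PF mice. By that measure fat-1 PF replicate 2 lay below all WT PF mice. Leaving out 1 mouse in turn gave B cell medians of -0.88 to -0.16. Of the B cell genes 0 had an unadjusted p under 0.05, and of the macrophage genes 0 were higher and 1 (7.69%) lower, beside 8.92% and 5.37% of all genes. The macrophage median turned from 0.19 to -0.25 without fat-1 PF replicates 2 and 4, with 1 of 13 genes above 0. In that fit 0 were higher and 2 lower at an unadjusted p under 0.05, beside 2.1% and 3.35% of all genes. The gene lower with all mice was Cd163, a scavenger receptor of resident macrophages, with 1.6, 3.21, 2.14 and 4.90 CPM in WT PF and 1.07, 1.01, 1.37 and 1.10 CPM in fat-1 PF mice (-1.38, SE 0.37), without overlap. All macrophage genes were detected in every library, and 1 of the B cell genes was at 0 in at least 1 library. The part of these cells in the MHC class II differences was not tested.

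Inducible defence genes of the epithelium had a median log2 fold change of -0.80 over 24 genes, with 4 (16.7%; Slc6a14, Lcn2, Saa3 and Slpi) lower and 1 (4.17%, Il18) higher at an unadjusted p under 0.05, beside 5.37% and 8.92% of all genes. Lcn2, which sequesters bacterial iron carriers, had 1.90, 4.87, 6.21 and 7.40 CPM in WT PF and 0.872, 1.76, 1.74 and 2.42 CPM in fat-1 PF mice (-1.59, SE 0.43, and -2.01 without replicates 2 and 4). The lowest WT PF mouse lay within the fat-1 PF range. The acute-phase protein Saa3 had 4.00, 3.42, 2.75 and 6.82 CPM in WT PF and 2.33, 1.01, 1.99 and 2.64 CPM in fat-1 PF mice (-1.08, SE 0.35), without overlap. Il18, a cytokine of the epithelium, had 44.3 to 96.7 CPM in WT PF and 97.8 to 152 CPM in fat-1 PF mice (0.73, SE 0.25). The median of the list without replicates 2 and 4 was -0.21, with 3 lower and 0 higher, beside 3.35% and 2.1% of all genes.

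Enzymes and receptors nearest to the transgene's product gave few differences. The 17 genes listed as fatty acid desaturases and elongases of the host had a median of -0.08, with 0 higher and 1 lower (5.88%) at an unadjusted p under 0.05, beside 8.92% and 5.37% of all genes, namely Fa2h, which is a hydroxylase and neither a desaturase nor an elongase, and a median of -0.02 without replicates 2 and 4. Fads2, the delta-6 desaturase that starts the synthesis of long PUFA in both series, had 33.6 to 49.2 CPM in WT PF and 17.8 to 43.8 CPM in fat-1 PF mice (-0.52, SE 0.25, and -0.18 without replicates 2 and 4). Fads1, the delta-5 desaturase of the same route, had 22.0 to 22.7 and 16.3 to 41.2 CPM (0.31, SE 0.23, and -0.15 without replicates 2 and 4). Of 12 fatty acid receptors 0 had an unadjusted p under 0.05, with values from -0.56 (SE 0.51) for Ffar4, a receptor of long-chain fatty acids, to 0.91 (SE 0.59) for the fatty acid translocase Cd36. Without replicates 2 and 4 both turned sign, to 0.06 and -0.34. In that fit 0 of the 12 were higher and 2 lower at an unadjusted p under 0.05, beside 2.1% and 3.35% of all genes.

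Among 24 eicosanoid and oxylipin enzymes the median was 0.19, with 4 (16.7%; Ptges2, Cyp2c65, Ephx2 and Ltc4s) higher and 1 (4.17%, Pla2g4c) lower at an unadjusted p under 0.05, beside 8.92% and 5.37% of all genes. Without fat-1 PF replicates 2 and 4 the median turned to -0.07, with 1 higher and 1 lower, beside 2.1% and 3.35% of all genes. Cyp2c65, an epoxygenase, had 89.7, 81.0, 76.6 and 37.4 CPM in WT PF and 98.6, 229, 116 and 142 CPM in fat-1 PF mice (1.04, SE 0.33, and 0.59 without those mice), with no overlap. Ephx2, the soluble epoxide hydrolase that clears epoxy fatty acids, had 291, 193, 180.1 and 88.1 CPM in WT PF and 343, 1010.1, 229 and 1038 CPM in fat-1 PF mice (1.80, SE 0.58, and 0.60 without those mice). Pla2g4c, a phospholipase A2 that frees fatty acids from membranes, had 44.2, 7.14, 26.7 and 18.7 CPM in WT PF and 5.33, 0.755, 7.94 and 1.32 CPM in fat-1 PF mice (-2.65, SE 0.78, and -1.89 without those mice). The lowest WT PF mouse overlapped with the fat-1 PF mice in Pla2g4c. The cyclooxygenase Ptgs2 had 2.38 to 2.60 and 1.94 to 3.60 CPM (0.23, SE 0.24).

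Absorption and detoxification genes lay higher, with fat-1 PF replicates 2 and 4 at the top in mean log2(CPM + 0.5). In the summed CPM of the phase II enzymes, replicate 4 (4681.0) lay below fat-1 PF replicate 3 (5043.4) and WT PF replicate 2 (4845.8). The 21 genes of lipid absorption and chylomicron assembly had a median of 0.48 (8 higher and 0 lower at an unadjusted p under 0.05), the 29 phase I xenobiotic enzymes 0.65 (14 and 0) and the 34 phase II enzymes 0.33 (12 and 0). These shares of 38.1%, 48.3% and 35.3% higher stand beside 8.92% of all genes. Without fat-1 PF replicates 2 and 4 the medians were 0.25, 0.32 and 0.17. In that fit 1, 1 and 2 genes were higher and 0 lower in each, beside 2.1% and 3.35% of all genes. Apoa4, an apolipoprotein of chylomicrons, had 10595, 5321, 6026 and 1574 CPM in WT PF and 9891, 36244, 7883 and 35581 CPM in fat-1 PF mice (1.93, SE 0.71, and 0.59 without replicates 2 and 4). Gstk1, a glutathione transferase of mitochondria and peroxisomes, had 27.7, 27.7, 20.5 and 12.9 CPM in WT PF and 31.7, 99.8, 34.4 and 66.0 CPM in fat-1 PF mice (1.38, SE 0.43, and 0.57 without them). The widest members were Adh1 (2.86, SE 0.98, and 0.65 without them) of phase I and Sult6b2 (5.32, SE 1.66, and 3.21 without them) of phase II, the latter at 0.372 CPM in fat-1 PF replicate 3 and at 60.2 to 319 CPM in the other 3. Sugar uptake and metabolism had a median of 0.50 over 20 genes with 8 (40.0%) higher and 0 lower, from Hk2 (-0.78, SE 0.57) to the hexose transporter Slc2a7 (1.51, SE 0.72), and a median of 0.19 with 0 higher and 0 lower without replicates 2 and 4.

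Of 13 enteroendocrine genes, 6 (46.2%) were higher and 0 lower at an unadjusted p under 0.05, beside 8.92% and 5.37% of all genes, with a median of 0.51. Without replicates 2 and 4 the median was 0.21, with 0 higher and 0 lower, beside 2.1% and 3.35% of all genes. Ghrl, which encodes the appetite hormone ghrelin, had 5.00, 4.04, 1.63 and 2.60 CPM in WT PF and 5.82, 23.4, 5.09 and 17.7 CPM in fat-1 PF mice (1.96, SE 0.58, and 0.71 without those mice). Its genotypes did not overlap. Gip, the incretin of the upper intestine, had 7.59 to 37.8 CPM in WT PF and 23.5, 149.8, 34.8 and 102 CPM in fat-1 PF mice (1.82, SE 0.71, and 0.39 without those mice). Pyy, the hormone of the distal gut, had 21.1 to 31.6 CPM in WT PF and 17.6, 1.64, 33.5 and 1.21 CPM in fat-1 PF mice (-0.92, SE 0.89, and -0.02 without those mice).

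The counts of the other lists at an unadjusted p under 0.05 stand beside 8.92% higher and 5.37% lower of all genes. Counts without fat-1 PF replicates 2 and 4 stand beside 2.1% higher and 3.35% lower of all genes. Cholesterol synthesis had a median of -0.25 over 21 genes with 0 higher and 0 lower, and bile acid handling -0.52 over 10 genes, also with 0 and 0. Without fat-1 PF replicates 2 and 4 both medians turned sign, to 0.10 and 0.04. Of the clock genes 4 of 18 (22.2%) were higher and 1 (5.56%) lower, and without those mice 1 was higher and 3 lower. Amino acid transporters had 0 higher and 3 of 14 (21.4%) lower, from Slc6a14 (-3.61, SE 1.24, with -1.91 without WT PF replicate 1 and -4.97 without fat-1 PF replicate 3) to Slc7a8 (0.69, SE 0.40), and 0 in either direction without those mice. Interferon-stimulated genes had 0 higher and 1 of 22 lower (4.55%; Mx1, -0.43, SE 0.15), and their median turned from 0.18 to -0.29 without those mice. The unfolded protein response had 2 of 16 (12.5%) higher and 1 lower with a median of 0.10, and 5 higher and 0 lower with 0.30 without those mice. The immediate early genes had 1 of 16 (6.25%) higher and 0 lower.

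Markers of tuft cells, T cells, enteric neurons and the general epithelium had medians of 0.01, -0.06, -0.22 and -0.08 with 0 genes in either direction, and without replicates 2 and 4 medians of -0.19, -0.34, -0.43 and -0.03. In that fit 1 of 9 tuft cell and 2 of 14 T cell genes were lower at an unadjusted p under 0.05, beside 3.35% of all genes, and 0 were higher in these 4 lists. Smooth muscle had -0.22 with 0 higher and 3 of 11 (27.3%) lower, and -0.07 with 0 and 0 without those mice. Goblet, Paneth and crypt stem cell markers had medians of -0.23, -0.47 and -0.10 with 1 (9.09%), 1 (7.69%) and 2 (15.4%) genes lower and 0 higher. Without those mice the medians were 0.09, -0.04 and 0.08, with 0 genes in either direction. Adipocyte markers had -0.47 with 1 higher of 10, -0.93 without those mice and 0.14 without WT PF replicate 4. Brush border hydrolases had a median of -0.00, from the metalloprotease Mep1a (-0.95, SE 0.70) to Treh (1.37, SE 0.44). The adenosine pathway had -0.07, Toll-like receptors and their adaptors -0.10, and arginine and urea cycle enzymes 0.30, which were -0.18, -0.11 and 0.10 without those mice.

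The EtOH-fed mice of the series, 3 WT and 5 fat-1, gave the genotype difference in animals that the PF comparison did not use. Fat-1 EtOH replicates 3 and 4 stood apart from the rest: Fabp6 was at 118 and 586 CPM in them and at 2344 to 4906 CPM in the other 6 EtOH libraries, and the biological coefficient of variation of fat-1 EtOH mice was 0.39. Values are therefore also given without these libraries, an alternative chosen after the data had been seen. In a fit of all 16 libraries edgeR called 1 of 13811 genes, or 0.00724%, for genotype under EtOH. This was Arl4a, with 85.2, 66.4 and 82.8 CPM in WT EtOH and 32.6, 36.2, 35.7, 41.2 and 31.2 CPM in fat-1 EtOH mice (log2 fold change -1.14, adjusted p 0.0079). It was lower in 5 of 5 fat-1 mice in EtOH and in 4 of 4 in PF. Without fat-1 EtOH replicates 3 and 4, edgeR again called Arl4a alone (-1.23, adjusted p 0.0207), which was 0.00735% of 13608 genes. Of the 24 genes named first above, 13 had the same sign in EtOH as in PF, 7 of the 12 higher and 6 of the 12 lower. Of these, 4 had an unadjusted p under 0.05, while 1 had an unadjusted p under 0.05 in the opposite direction, beside 671 of 13811 genes (4.86%) in either direction. Without those libraries 13 again had the same sign, 5 of the higher and 8 of the lower genes, with 2 and 0 at an unadjusted p under 0.05 in the same and the opposite direction, beside 642 of 13608 genes (4.72%).

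Ndufa12 had 31.6, 37.8 and 29.5 CPM in WT EtOH and 33.5, 36.0, 35.8, 43.2 and 33.1 CPM in fat-1 EtOH mice (0.14, SE 0.14, and 0.05 without replicates 3 and 4), so the groups overlapped. Ciita had 16.7, 30.8 and 28.7 CPM in WT EtOH and 23.2, 13.9, 4.35, 4.28 and 86.2 CPM in fat-1 EtOH mice (0.06, SE 0.72, and 0.68 with SE 0.50 without replicates 3 and 4), with the highest and the lowest values both in fat-1 mice. The oxidative phosphorylation genes had a median of 0.06 in EtOH, beside 0.03 for all genes, and 0 of 82 had an unadjusted p under 0.05 in either direction, beside 4.86% of all genes. Without those libraries the median was -0.06, beside -0.00 for all genes, and again 0 were at an unadjusted p under 0.05, beside 4.72% of all genes. The difference between the diets was tested as an interaction term, for which 0 of 13811 genes (0%) had an adjusted p of 0.05 or less in edgeR, with a smallest adjusted p of 0.595 and 1141 genes (8.26%) at an unadjusted p under 0.05. Of the oxidative phosphorylation genes 35 of 82 were among the latter, a count that uses the same PF values as the comparison above. Without fat-1 EtOH replicates 3 and 4 the interaction gave 0 of 13608 genes (0%) at an adjusted p of 0.05 or less, with a smallest adjusted p of 0.566, and 1185 (8.71%) at an unadjusted p under 0.05, among them 62 of the 82.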

How the data were processed

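Ileal poly(A) RNA of 16 mice was sequenced, and the 8 PF libraries are described here. According to the labels and the study's methods, the authors aligned stranded reads to the mouse genome (mm10) guided by Ensembl build 82 and deposited whole-number counts per gene, not normalized, and the submitters' processing notes name bcl2fastq, FastQC 0.10.1 and Cufflinks. The counting tool's version, annotation and strand setting were not given in the sources used here, so reads of overlapping genes may be shared. Positions and exon lengths came from GENCODE M21 (GRCm38), which lacked 26 of the 21965 genes, and promoters from RefSeq (GRCm38.p6).

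Counts were tested with edgeR 4.0.16 (R 4.3.3; robust quasi-likelihood, TMM, filterByExpr, Benjamini-Hochberg adjustment, threshold 0.05), with DESeq2 1.42.0 and limma 3.58.1 as alternatives. CPM used TMM-adjusted library sizes. Scores were means of log2(CPM + 0.5). The test was tried on simulated data.

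The comparison and the 42 gene lists (832 symbols) were chosen with earlier results of these data known. Named genes were, in each direction, the 12 with the largest change among genes called without overlap, with places left filled by the smallest p among genes without overlap (all 24 here), then the largest and smallest member of each list described and up to 4 that define it. Of the genes that the study itself names, only some are given. Some genes were named after their values were seen: those that edgeR called without fat-1 PF replicate 3, and Mrps16, Mrpl3 and Rps27l. The motif search planned for called genes had no gene to run on. Not every member of the regional transcription factor list is reported here.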

Additional observations from a re-analysis of the deposited data

Results flagged for a closer look

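In 23 of 344 groups of 4 mice looked at, 1 mouse lay far from the other 3, a distance that chance gives in about 1 in 20 groups. Fat-1 PF replicate 3 was high for Cd74 (2231 CPM, others 586 to 702), H2-Aa (957, others 205 to 240.3), H2-Ab1 (873, others 247 to 309.8), H2-DMb1 (96.4, others 20.7 to 28.1), Atf3 (32.0, others 13.2 to 14.4), Rps7 (253, others 182 to 193) and the amino acid transporter Slc6a14 (9.93, others 0.629 to 1.65 CPM). Its mean log2(CPM + 0.5) was also high for the MHC class II list (6.69, others 5.51 to 5.67) and the cytoplasmic ribosomal proteins (8.15, others 7.78 to 7.81).

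Among the other fat-1 PF mice, replicate 1 was high for Ern2 (17.9 CPM, others 6.33 to 8.26) and low for Mrpl48 (26.0 CPM, others 32.6 to 33.9), and replicate 2 was high for Cyp2c66 (35.9 CPM, others 6.50 to 11.2) and low for the desaturase and elongase list (5.11, others 5.39 to 5.44).

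Among WT PF mice, replicate 1 was high for Slc6a14 (127 CPM, others 7.23 to 17.1) and Onecut2 (2.70 CPM, others 0.288 to 0.518) and low for Zfp37 (6.70 CPM, others 8.49 to 8.65). Replicate 3 was high for Sult6b2 (10.8 CPM, others 0.0961 to 1.5) and Clock (89.6 CPM, others 83.9 to 84.7). Replicate 4 was high for Timp2 (32.3 CPM, others 27.0 to 27.3) and low for Rdh7 (18.9 CPM, others 47.8 to 53.5). Its mean log2(CPM + 0.5) was low for lipid absorption (8.33, others 9.03 to 9.15), phase II enzymes (5.12, others 5.59 to 5.65) and the regional transcription factors (5.93, others 6.09 to 6.11).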

How the results depend on the processing

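The number of genes called at an adjusted p of 0.05 or less was 0 in edgeR and 99 with DESeq2's Wald test, and the cause was not tested. Leaving out each mouse in turn gave 0 to 10 called genes, the 10 without fat-1 PF replicate 3, and 1020 to 2878 genes at an unadjusted p under 0.05. Limma voom, other normalizations, other filters on low counts, the fit of all 16 libraries and the length and GC offsets called 0 genes. Without both fat-1 PF replicates 2 and 4 there were 0 called genes and 719 at an unadjusted p under 0.05. A replicate block called 0 genes, with 1507 at an unadjusted p under 0.05. The correlations of same-numbered mice, each taken relative to its group mean, were -0.25, 0.21, -0.04 and -0.15. With 4 mice a group these values cannot decide whether the numbers pair the mice.

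Of 2562 gene values under 20 alternatives, 2472 kept their direction and side of the threshold, 49 passed it and 41 changed sign; 109 of the 129 named genes changed sign under none of these. Without fat-1 PF replicates 2 and 4 the sign changed for Usp18 (-0.03), Hlf (-0.06), Degs1 (-0.08), Cd36 (-0.34), Tlr12 (-0.18), Fads1 (-0.15), Hoxa5 (-0.29), Vnn1 (0.05), Ffar4 (0.06), Gsr (0.28), Plb1 (0.14), Angptl4 (0.20), Cyp3a44 (0.37), Fabp6 (0.36), Mrpl3 (0.08) and Ndufaf7 (0.07). Leaving out 1 mouse gave ranges of -0.07 to 0.18 for Cpt1a, -0.89 to 0.01 for Angptl4, -0.71 to 0.05 for Cyp3a44, -0.39 to 0.13 for Ppara, -0.11 to 0.37 for H2-Oa, -0.09 to 0.02 for Mrpl3, -0.10 to 0.13 for Cox6b2 and -0.05 to 0.06 for Ndufaf7. H2-Oa was at -0.02 with voom, -0.04 with the length offset and -0.03 with length and GC, Mrpl3 at 0.04 and 0.03 with these offsets, Cox6b2 at 0.02 in the fit of all 16 libraries, and Ndufaf7 at 0.02 there, 0.00 with DESeq2 and with its size factors and 0.01 with the length offset. Of 860 list medians, 840 moved by less than the spread between mice and 20 by more. Without fat-1 EtOH replicates 3 and 4 the calls under EtOH and for the interaction stayed at 1 and 0 genes. Leaving out 1 mouse turned the sign of the medians of adipocyte (-0.76 to 0.14), immediate early (-0.09 to 0.18), amino acid transporter (-0.14 to 0.08), T cell (-0.15 to 0.07), tuft cell (-0.09 to 0.12), cytoplasmic ribosomal (-0.05 to 0.11), brush border (-0.11 to 0.06) and adenosine (-0.12 to 0.03) genes.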

Other observations

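The promoter windows of 68 oxidative phosphorylation genes held the NRF1 core TGCGCA, on either strand, in 16 genes (23.5%), beside 15.5% of the 10191 tested genes with a window and 11 of 57 cytoplasmic ribosomal genes (19.3%). The nuclear receptor motif AGGTCA was in the windows of 6 of 20 fatty acid oxidation and PPARA target genes, beside 15.0% of the tested genes with a window. These shares are descriptions of 300-base windows and were not tested.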
